A study of Homo sapiens with 6 samples.

Results

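RNase P and RNase MRP are described here through 10 genes, chosen by name from what is known of these enzymes: the RNA subunits RPPH1 and RMRP and the protein subunits POP1, POP4, POP5, POP7, RPP25, RPP30, RPP38 and RPP40. All 10 have a row among the 19589 features of the authors' deposited table, and all 10 are among the 14597 features with an adjusted p. The study knocked down HOTAIR, a long non-coding RNA of the HOXC cluster, and sequenced ribosomal-RNA-depleted total RNA with a stranded kit. The cells, labelled HepG2 (a line from a human liver tumour), were transfected with an siRNA targeting HOTAIR (siHOTAIR) or a negative control siRNA (siNC), with 3 libraries labelled in each group. All libraries share the line, the medium and the transfection itself. Whether each library had its own culture is not stated, so the p-values below speak only for the spread among these libraries.

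The deposited table holds no column for a single library. Its means are whole-number sums of reads over 5 libraries (3 siHOTAIR and 2 siNC in the authors' comparison), and 1 labelled siNC library is not part of them. Reads per library were recovered from these means and from the authors' fold changes for 13237 of 13262 features with a mean of 5 to 1800 (99.8%), including all 10 components. They are called siHOTAIR libraries A, B and C and siNC libraries A and B, where the letters only name them. The recovered reads sum to between 3868936 and 5180424 per library. HOTAIR had 62.4, 78.2 and 59.7 normalized counts in the siHOTAIR libraries, against 202 and 150 in the siNC libraries. In the authors' deposited table it fell to 38.7% of its siNC level (log2 fold change −1.37, adjusted p = 5.60e-11). Of 16 listed hepatocyte markers 8 had a row, and the plasma protein genes SERPINA1 and APOA1 had means of 0.167 and 0.382 normalized counts over all libraries, near 0. The epithelial keratin KRT7 had a mean of 11514. Of 8 listed fibroblast markers 6 had a row, and COL1A2 and PDGFRA had none. LUM had a mean of 3.04 and no adjusted p. Of 5 fibroblast markers with an adjusted p, 3 rose in the authors' deposited table, where 20% of all features rose. They were COL1A1, PDGFRB and DCN, the last with a mean of 12.8. THY1 (log2 fold change 0.71, adjusted p = 0.27) and COL3A1 (−0.07, adjusted p = 0.90) did not pass there. The list summed to 2144 to 2545 in siHOTAIR libraries and 1240 in both siNC libraries, and COL1A1 makes up most of these sums. Of 8 listed squamous and other epithelial markers, 5 had a row, and KRT5, KRT6A and CDX2 had none. KRT14, TP63 and VIL1 had means of 0.173, 1.33 and 1.16, near 0. Of the 2 epithelial markers with an adjusted p in the authors' deposited table, KRT17 fell (log2 fold change −0.31) and KRT7 did not pass (−0.06, adjusted p = 0.61). The name HepG2 is used as a label only, and the part of these markers in the results was not tested.

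RNase P is the nuclear ribonucleoprotein that removes the leader from precursor tRNAs, and its RNA, H1 RNA (RPPH1), is the catalytic subunit. RNase MRP is a related enzyme that cleaves precursor ribosomal RNA in the nucleolus. Its RNA (RMRP) descends from the same ancestor, is mutated in cartilage-hair hypoplasia, and folds around most of the same proteins. Both RNAs are transcribed by RNA polymerase III from promoters that lie wholly upstream of the gene, while the proteins come from ordinary mRNAs.

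Both RNAs are shown because they are the components that set the enzymes apart. The capitals mark matches to GNAANNTC (N is any base), the first letters of conserved region I of the RNase P RNA family, in the GENCODE 29 transcripts. RMRP-201 is 268 bases long (GRCh38, chr9:35657751-35658018, minus strand). RPPH1-201 is 333 bases long (GRCh38, chr14:20343075-20343407, minus strand), of which bases 1 to 300 are printed. 
RMRP-201: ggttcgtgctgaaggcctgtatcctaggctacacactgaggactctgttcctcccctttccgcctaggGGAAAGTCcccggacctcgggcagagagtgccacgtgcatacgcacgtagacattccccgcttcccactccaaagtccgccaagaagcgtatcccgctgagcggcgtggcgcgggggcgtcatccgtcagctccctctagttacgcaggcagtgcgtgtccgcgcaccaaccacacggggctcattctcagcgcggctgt
RPPH1-201: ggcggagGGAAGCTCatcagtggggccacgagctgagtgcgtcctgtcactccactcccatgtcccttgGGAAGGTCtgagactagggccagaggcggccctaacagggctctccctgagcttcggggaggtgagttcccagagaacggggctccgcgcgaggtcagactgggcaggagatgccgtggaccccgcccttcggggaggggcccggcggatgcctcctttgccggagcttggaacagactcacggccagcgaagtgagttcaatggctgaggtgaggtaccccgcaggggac
A match lies at bases 69 to 76 of RMRP-201 and at bases 70 to 77 of RPPH1-201, which has another at bases 8 to 15. The pattern is short, and 28.9% of the 7523 GENCODE 29 transcripts of 250 to 350 bases hold it on the sense strand. The GC content is 63.1% in RMRP-201 and 64.6% in RPPH1-201.

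Each RNA gene lies head to head with a protein-coding gene, and the windows of those neighbours cover most of the space between the starts: that of CCDC107 ends 23 bases short of RMRP, and that of PARP2 takes in the first 23 bases of RPPH1. They are shown because both neighbours changed between the groups. The windows run from 250 bases before to 50 bases after the start of the neighbour, in RefSeq on GRCh38.p14. CCDC107 (chr9:35658042-35658341, plus strand) starts with 273 bases between its start and that of RMRP, and PARP2 (chr14:20343385-20343684, plus strand) with 227 bases between its start and that of RPPH1. The capitals mark TATAAA and TTATAA on either strand, together with the octamer ATGCAAAT and the motif CCAAT. The E-box CACGTG, the ETS motif CCGGAAG and the palindromic NRF1 motif were also searched, and neither window holds them. 
CCDC107 window: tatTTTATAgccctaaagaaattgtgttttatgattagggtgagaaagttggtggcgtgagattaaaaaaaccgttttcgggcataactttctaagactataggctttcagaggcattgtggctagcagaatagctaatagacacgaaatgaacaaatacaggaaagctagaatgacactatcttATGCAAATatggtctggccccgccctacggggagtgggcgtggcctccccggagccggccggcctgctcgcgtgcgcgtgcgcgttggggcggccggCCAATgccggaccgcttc
PARP2 window: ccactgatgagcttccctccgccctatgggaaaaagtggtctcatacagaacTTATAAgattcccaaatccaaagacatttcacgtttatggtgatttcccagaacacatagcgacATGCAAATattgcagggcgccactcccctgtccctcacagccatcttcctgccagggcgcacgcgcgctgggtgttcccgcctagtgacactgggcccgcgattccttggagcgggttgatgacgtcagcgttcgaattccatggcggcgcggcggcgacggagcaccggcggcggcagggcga
In the CCDC107 window, TATAAA reads toward RMRP, 27 to 32 bases upstream of the start of the RNA. In the PARP2 window, the palindrome TTATAA lies 30 to 35 bases upstream of RPPH1, and the octamer 94 to 101 bases upstream. The octamer in the CCDC107 window is farther out, 209 to 216 bases from RMRP. Of 35116 RefSeq windows of this length, 11.5% hold TATAAA, 5.19% TTATAA, 1.77% the octamer (also written ATTTGCAT on the other strand) and 34.6% CCAAT.

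The components moved in both directions after HOTAIR knockdown. In these bulk libraries, fewer cells that express a gene and less RNA per cell cannot be told apart. At an adjusted p under 0.05 in the authors' deposited table, POP5 and POP7 rose, RMRP and POP4 fell, and RPPH1, POP1, RPP25, RPP30, RPP38 and RPP40 did not pass. Of all 14597 features 20% rose, 20.4% fell and 40.4% did either, so the 4 of 10 components called are close to the share among all features. The median log2 fold change in the authors' deposited table was −0.07 over the 10 components and 0.01 over all features. No component is in the authors' own list of differential genes. In the recovered normalized counts, every siHOTAIR library was lower than both siNC libraries for RMRP, POP4 and RPP38 (3 components) and higher than both for POP5, POP7 and RPP40 (3 components). Among the 7621 features with a mean of 100 to 1200, 36.7% lay below in this way and 33.4% above. With 3 libraries against 2, an exact permutation test of a single gene cannot give a two-sided p under 0.2, so none was made.

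**Figure D1:**
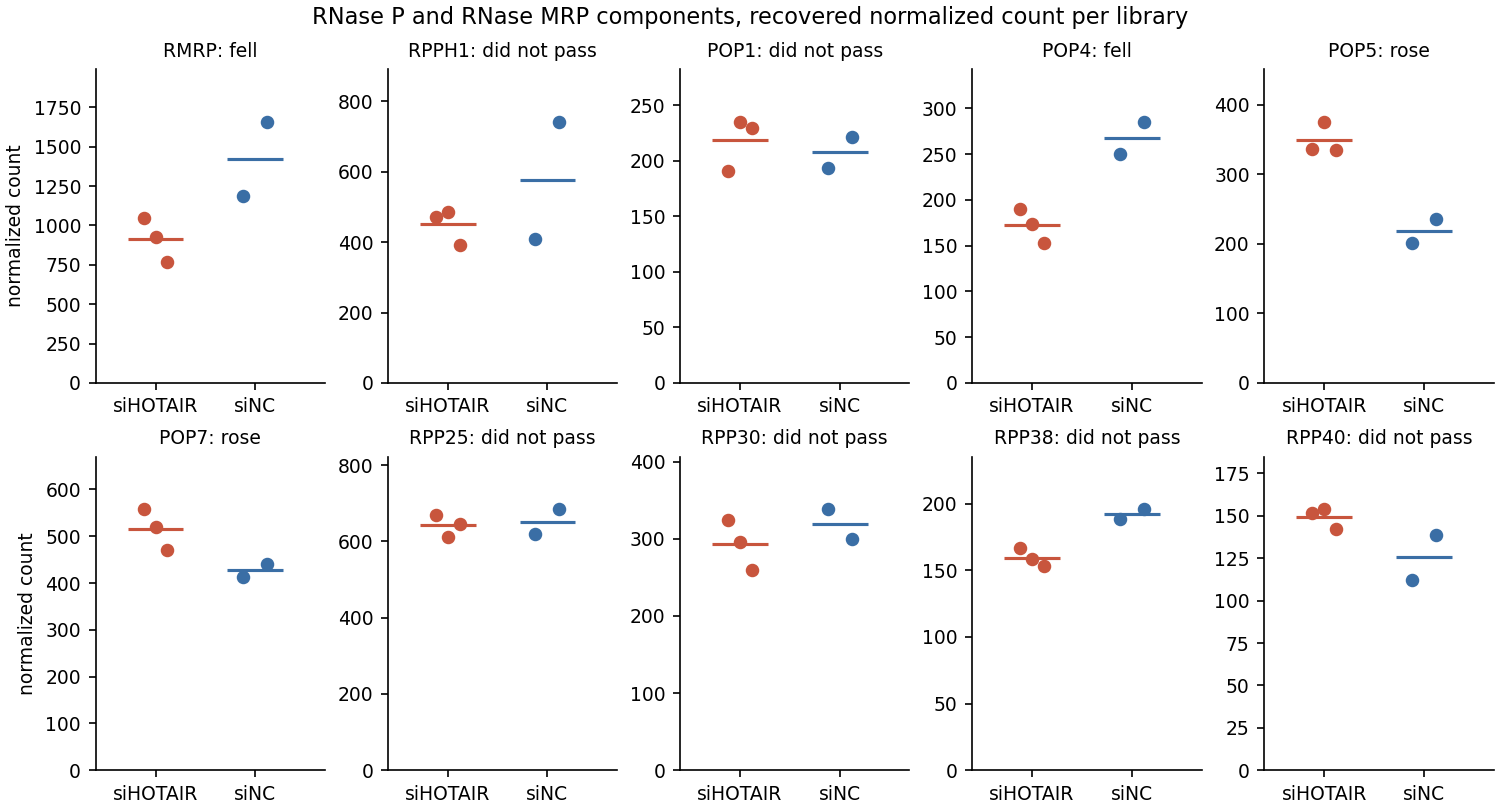
Recovered normalized count (y axis, from 0) of each of the 10 components in each library, as points, with the group mean as a line and siHOTAIR left of siNC. The groups stand apart for RMRP, POP4, POP5, POP7, RPP38 and RPP40, and siNC library B is the highest point for both RMRP and RPPH1.

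RMRP, the RNA of RNase MRP, had the highest mean normalized count of the 10 components, also per length of annotated exon. It had 1051, 924 and 771 normalized counts in siHOTAIR libraries A, B and C, from 1213, 863 and 684 reads, against 1188 and 1660 in siNC libraries A and B, from 1419 and 1482 reads. All siHOTAIR libraries were lower than both siNC libraries, and the siNC libraries differed from each other by more than siHOTAIR library A differed from siNC library A. In the authors' deposited table RMRP fell to 65.4% of its siNC level (log2 fold change −0.61, standard error 0.231, adjusted p = 0.0228). The 95% interval from the standard error ran from −1.06 to −0.16. Its call was lost at a threshold of 0.01. With limma on the recovered counts the value was −0.63 with all libraries and −0.39 without siNC library B, where siNC library A alone stands for the control. RefSeq lists pseudogene copies of both RNAs, so some of their reads may have been assigned to a copy, and RPPH1 lies wholly within the annotated span of AL355075.4 on the same strand.

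RPPH1, the catalytic RNA of RNase P, had 470, 487 and 393 normalized counts in siHOTAIR libraries A, B and C, against 408 and 743 in siNC libraries A and B. The groups overlapped, since siNC library A lay below siHOTAIR libraries A and B. RPPH1 did not pass in the authors' deposited table (log2 fold change −0.33, standard error 0.308, adjusted p = 0.43), and the 95% interval from −0.93 to 0.28 leaves room for a fall of the size fitted for RMRP. The value rested on the siNC side: with limma on the recovered counts RPPH1 was at −0.73 on the log2 scale without siNC library A, and at 0.14 without siNC library B. Each of these fits has a single siNC library and so holds no spread among siNC libraries. With all 5 libraries, limma with a mean trend gave −0.30, which passed (adjusted p = 0.0386), and limma-voom gave −0.27, which did not (adjusted p = 0.0537). The mean-trend fit passed with pseudocounts of 0.5 (adjusted p = 0.0392) and 5 (0.0356), but not on features with a mean of at least 5 (0.0503). It passed without siHOTAIR library B (adjusted p = 0.00794), but not without siHOTAIR library A (0.0727) or siHOTAIR library C (0.22). The difference between the changes of RMRP and RPPH1 was not tested.

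Both RNAs had larger standard errors than nearly all features of like mean. For RMRP, the standard error in the authors' deposited table was larger than that of 99.6% of the 770 features with a mean within 1.2-fold of its own, whose median was 0.0823. For RPPH1 it was larger than that of 99.9% of 1263 such features, whose median was 0.104. The protein components had standard errors of 0.0936 to 0.169, larger than those of 25.5% to 66.0% of their like features. Normalized counts of RMRP were 1.40 times and those of RPPH1 1.82 times as high in siNC library B as in siNC library A, while this ratio lay between 0.824 and 1.23 for the middle 90% of features with a mean of 100 to 1200. The ratio of RMRP to RPPH1 within a library was 2.23, 1.90 and 1.96 in siHOTAIR libraries A, B and C, against 2.91 and 2.24 in siNC libraries A and B, so it differed little between siHOTAIR library A and siNC library B. Per kilobase of annotated exon, the mean normalized count over all libraries was 4174 for RMRP and 1502 for RPPH1, against 32.0 to 486 for the protein components.

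**Figure D2:**
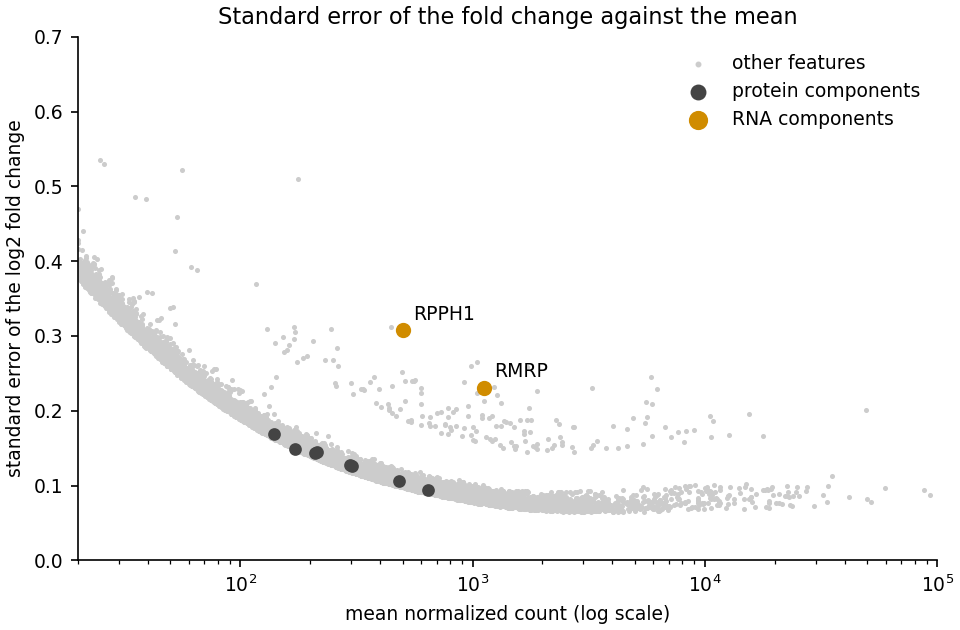
Standard error of the log2 fold change (y axis) against the mean normalized count (x axis, log scale) in the authors' deposited table, for features with a mean of at least 20 and an adjusted p. RMRP (0.231) and RPPH1 (0.308) stand above the main band, and the 8 protein components lie within it.

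The remaining features were searched for those that varied over the 5 libraries most like each RNA, by Euclidean distance of centred log2(normalized count + 1) among 11187 features with a mean of at least 20. For RMRP the nearest were GON7 at a distance of 0.0716, TMEM260 at 0.127 and GTF2A2 at 0.128. GON7, a subunit of the complex that makes a tRNA modification (KEOPS), had 71.0, 65.3 and 54.1 normalized counts in the siHOTAIR libraries, against 86.2 and 118 in the siNC libraries. For RPPH1 the nearest were GRAMD1C at 0.209, RARRES1 at 0.253 and ZNF708 at 0.254. With 5 libraries and this many features, such neighbours are a description of the profiles only.

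Among the proteins, POP5 and POP4 moved in opposite directions and by similar amounts. POP5, a small core subunit that pairs with RPP14, had 336, 376 and 335 normalized counts in the siHOTAIR libraries, against 201 and 235 in the siNC libraries. Every siHOTAIR library was above both siNC libraries. POP5 rose 1.60-fold in the authors' deposited table (log2 fold change 0.68, standard error 0.127, adjusted p = 9.96e-07). POP4 (also called RPP29), a core subunit that contacts the RNA and pairs with RPP21, had 191, 173 and 153 normalized counts in the siHOTAIR libraries, against 250 and 286 in the siNC libraries. The groups did not overlap, and POP4 fell to 65.2% of its siNC level in the authors' deposited table (log2 fold change −0.62, standard error 0.143, adjusted p = 9.04e-05). Both calls held under all 14 tested alternatives.

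The ratio of POP5 to POP4 within a library, chosen after their values were seen, was 1.76, 2.17 and 2.18 in siHOTAIR libraries A, B and C, against 0.803 and 0.824 in siNC libraries A and B. POP5 was thus above POP4 in each siHOTAIR library and below it in each siNC library. These are counts per gene and not per length, so a ratio of 1 has no meaning of its own.

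**Figure D3:**
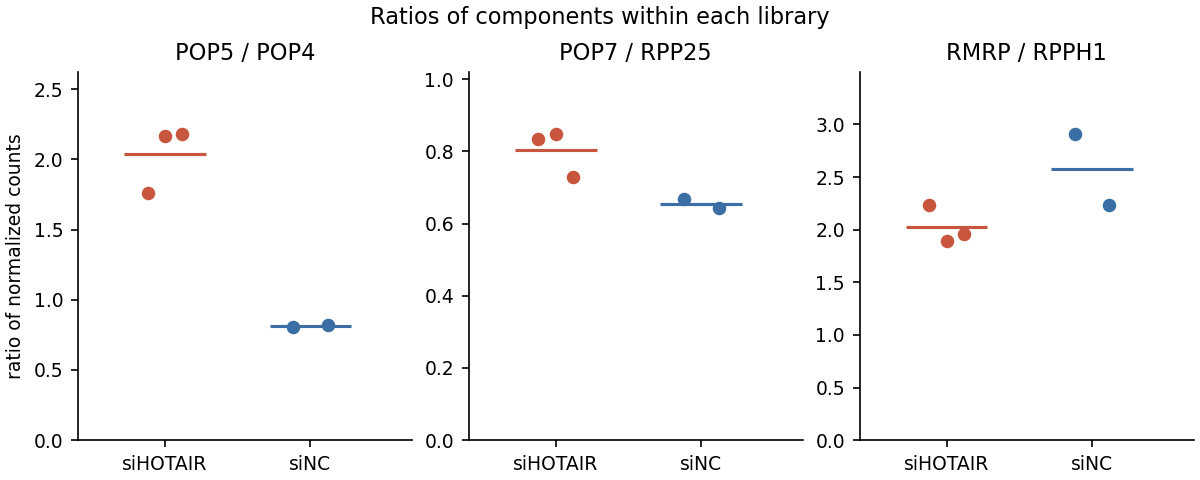
Ratio of normalized counts of a pair of components within each library (y axis, from 0), as points with the group mean as a line, siHOTAIR left of siNC. POP5 over POP4 is 1.76 to 2.18 in siHOTAIR libraries and 0.803 to 0.824 in siNC libraries, while RMRP over RPPH1 nearly meets at 2.23 and 2.24.

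The promoters of POP4 and POP5 are shown because these genes had the smallest p of the 10 components. The windows run from 250 bases before to 50 bases after the start in RefSeq on GRCh38.p14: POP4 at chr19:29606033-29606332 (plus strand) and POP5 at chr12:120581353-120581652 (minus strand). The capitals mark matches on either strand to the same motifs. 
POP4 window: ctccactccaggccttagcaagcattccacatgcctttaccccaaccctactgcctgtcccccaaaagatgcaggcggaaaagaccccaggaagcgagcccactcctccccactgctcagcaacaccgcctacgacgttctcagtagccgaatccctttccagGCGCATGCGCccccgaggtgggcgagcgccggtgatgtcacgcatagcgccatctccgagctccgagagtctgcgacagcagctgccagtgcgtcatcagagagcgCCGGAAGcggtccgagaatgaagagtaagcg
POP5 window: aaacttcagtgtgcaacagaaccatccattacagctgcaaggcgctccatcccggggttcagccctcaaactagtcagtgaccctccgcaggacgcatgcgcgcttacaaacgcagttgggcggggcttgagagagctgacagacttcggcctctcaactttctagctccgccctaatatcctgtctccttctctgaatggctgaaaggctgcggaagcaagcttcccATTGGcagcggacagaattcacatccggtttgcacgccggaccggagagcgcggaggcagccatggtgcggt
The POP4 window holds the NRF1 motif, found in 1.24% of all 35116 windows, and CCGGAAG, found in 10.3%. The POP5 window holds CCAAT on its reverse strand and none of the others. RefSeq windows were at hand for 7 of the 10 components (all but RMRP, RPPH1 and POP1), and that of POP7, the other component that rose, holds CACGTG (7.26% of all windows) and CCGGAAG. No motif searched was shared by the windows of POP5 and POP7. These matches are letters in a window, and binding was not measured.

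POP7 (also called RPP20) and RPP25 form a dimer that grips a stem of both RNAs. POP7 had 559, 519 and 470 normalized counts in the siHOTAIR libraries, against 414 and 440 in the siNC libraries. The groups did not overlap, and POP7 rose 1.21-fold in the authors' deposited table (log2 fold change 0.28, standard error 0.106, adjusted p = 0.0259). The call was lost at a threshold of 0.01 and, with limma, without siHOTAIR library A (adjusted p = 0.0799) or siHOTAIR library B (0.0567). It was also lost without siNC library A (log2 fold change 0.22), a fit with a single siNC library. RPP25, its partner, had 669, 611 and 646 normalized counts in the siHOTAIR libraries, against 619 and 686 in the siNC libraries, and the groups overlapped. RPP25 was at −0.02 on the log2 scale in the authors' deposited table (standard error 0.0936, adjusted p = 0.90), with a 95% interval from −0.20 to 0.16. The annotated span of RPP25 shares 246 bases with that of SCAMP5 on the opposite strand, and no source used here says whether the authors counted by strand.

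The other 4 proteins did not pass. POP1, the largest subunit and a scaffold of both enzymes, had 191, 236 and 230 normalized counts in the siHOTAIR libraries, against 193 and 222 in the siNC libraries. RPP30, a core subunit of both enzymes, had 324, 295 and 260 in the siHOTAIR libraries, against 339 and 300 in the siNC libraries. The groups overlapped for both. On the log2 scale, POP1 was at 0.07 in the authors' deposited table (standard error 0.145, adjusted p = 0.74) and RPP30 at −0.12 (standard error 0.126, adjusted p = 0.48).

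RPP38, which binds a kink-turn in the RNAs, had 166, 158 and 153 normalized counts in the siHOTAIR libraries, against 188 and 196 in the siNC libraries. RPP40 had 152, 154 and 142 in the siHOTAIR libraries, against 112 and 139 in the siNC libraries. The groups stood apart for both, RPP38 being lower and RPP40 higher in every siHOTAIR library, but neither passed. The authors' deposited table has a log2 fold change of −0.26 for RPP38 (standard error 0.149, adjusted p = 0.15) and 0.25 for RPP40 (standard error 0.169, adjusted p = 0.23). With limma on the recovered counts, RPP40 was at 0.25 with all libraries (adjusted p = 0.11). It was at 0.10 without siNC library A and at 0.41 without siNC library B, in fits with a single siNC library. The RPP38 locus overlaps NMT2 on the opposite strand, so its reads share the doubt about strand given for RPP25.

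**Figure D4:**
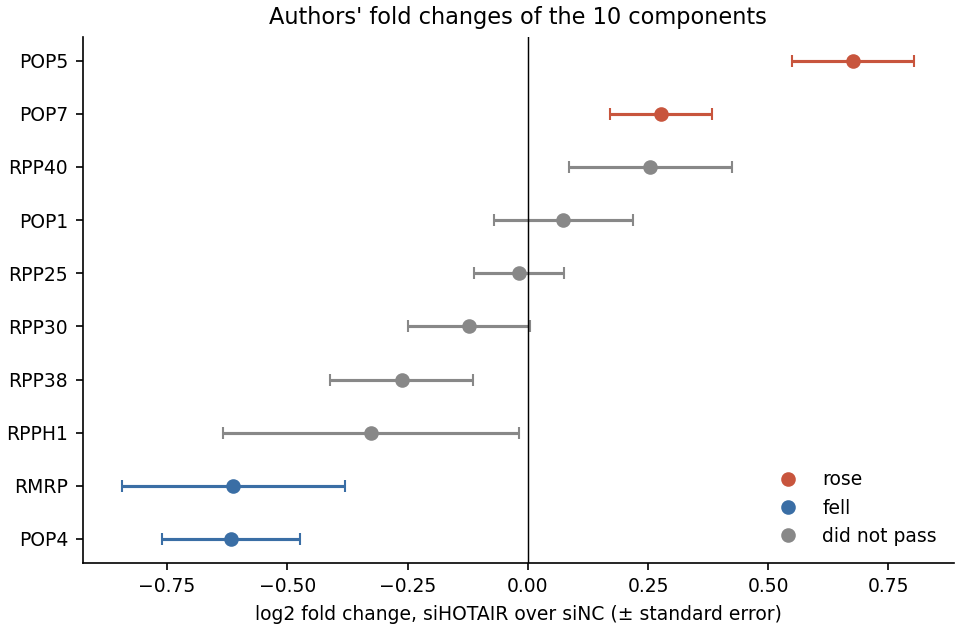
Log2 fold change of siHOTAIR over siNC (x axis) for the 10 components, ordered by value, with bars of 1 standard error, from the authors' deposited table. POP5 (0.68) and POP7 (0.28) rose, POP4 (−0.62) and RMRP (−0.61) fell, and RPPH1 has the widest bar.

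Summed over the 8 protein components, normalized counts were 2587, 2523 and 2388 in the siHOTAIR libraries, against 2317 and 2504 in the siNC libraries, and the groups overlapped. Summed over both RNAs they were 1521, 1411 and 1164 in the siHOTAIR libraries, against 1596 and 2403 in the siNC libraries. The RNA sums did not overlap, and the RMRP values make up most of them.

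The proteins that complete the enzymes did not pass. RPP14, the partner of POP5, had 352, 359 and 392 normalized counts in the siHOTAIR libraries, against 317 in both siNC libraries. In the authors' deposited table RPP14 was at 0.21 (adjusted p = 0.14), RPP21, the partner of POP4 in RNase P, at 0.05 (adjusted p = 0.92) and RPP25L, a paralog of RPP25, at 0.04 (adjusted p = 0.87), all on the log2 scale. Mitochondria cut tRNA leaders with an enzyme made of proteins alone, in which PRORP is the nuclease. PRORP had 219, 217 and 214 normalized counts in the siHOTAIR libraries, against 366 and 400 in the siNC libraries, and the groups did not overlap. It fell to 57.1% in the authors' deposited table (log2 fold change −0.81, standard error 0.122, adjusted p = 4.79e-10). Its partners TRMT10C (log2 fold change −0.19, adjusted p = 0.19) and HSD17B10 (−0.08, adjusted p = 0.51) did not pass in the authors' deposited table.

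The divergent neighbours of the RNAs moved in opposite directions. PARP2, a DNA damage responsive poly(ADP-ribose) polymerase that shares its upstream region with RPPH1, had 298, 288 and 266 normalized counts in the siHOTAIR libraries, against 397 and 375 in the siNC libraries. CCDC107, which shares its upstream region with RMRP, had 95.3, 106 and 92.4 in the siHOTAIR libraries, against 62.8 and 58.3 in the siNC libraries. Neither pair of groups overlapped. In the authors' deposited table PARP2 fell (log2 fold change −0.44, adjusted p = 0.000708) and CCDC107 rose (0.67, adjusted p = 0.00619), so RMRP and its neighbour changed in opposite directions.

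Like RMRP, some of the other RNAs made by RNA polymerase III fell, in a short list, while 20.4% of all features fell. Of 19 such RNAs listed, 7 had a row. VTRNA1-2, VTRNA1-3 and RNY1 had no adjusted p, and of these VTRNA1-2 and RNY1 lay above 0 and VTRNA1-3 below it. Of the 4 with an adjusted p in the authors' deposited table, 3 fell and none rose: the signal recognition particle RNAs RN7SL2 (log2 fold change −1.13, adjusted p = 2.17e-07) and RN7SL1 (−0.81, adjusted p = 1.03e-11) and the neuronal cytoplasmic RNA BCYRN1 (−0.64, adjusted p = 0.0288). RN7SK, which holds the elongation factor P-TEFb inactive, had 1678, 1709 and 1120 normalized counts in the siHOTAIR libraries, against 1777 and 2297 in the siNC libraries. RN7SK did not pass in the authors' deposited table (log2 fold change −0.42, standard error 0.259, adjusted p = 0.20). Its standard error was larger than that of all 504 features of like mean, and siNC library B and siHOTAIR library C were its highest and lowest libraries, as they were for RMRP and RPPH1. BCYRN1 did not share this order, with 49.4, 37.5 and 45.1 normalized counts in the siHOTAIR libraries, against 72.8 and 67.2 in the siNC libraries. RN7SL1 and RN7SL2 are near-identical copies, so the split of reads between them is uncertain and their falls may not be separate. At a threshold of 0.01 the call of BCYRN1 was lost, and only these copies fell.

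The genes for RNA polymerase III itself went both ways. Of 18 core subunit rows with an adjusted p (POLR2F among them as a transcript row with few reads), 5 rose and 5 fell. Over all features 20% rose and 20.4% fell. The median log2 fold change of these rows was −0.03 in the authors' deposited table. POLR3GL, one of a pair of alternative subunits, had 28.6, 38.5 and 36.0 normalized counts in the siHOTAIR libraries, against 97.1 and 86.3 in the siNC libraries. It fell to 38.9% in the authors' deposited table (log2 fold change −1.36, adjusted p = 4.28e-07), while its alternative POLR3G was at 0.04 (adjusted p = 0.88). POLR2H (0.46) and POLR2L (0.37), on the same log2 scale of the authors' deposited table, rose.

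Of 19 initiation factors and regulators, 6 rose and 3 fell, against 20% and 20.4% of all features. Their median log2 fold change was 0.02 in the authors' deposited table. GTF3A (TFIIIA, which serves the 5S rRNA genes) had 1447, 1290 and 1303 normalized counts in the siHOTAIR libraries, against 553 and 601 in the siNC libraries. It rose 2.33-fold in the authors' deposited table (adjusted p = 6.64e-42). MAF1, a repressor of RNA polymerase III, rose 1.64-fold in the authors' deposited table (adjusted p = 6.34e-20), with 1890, 1848 and 1947 normalized counts in the siHOTAIR libraries, against 1093 and 1219 in the siNC libraries. GTF3C6, a subunit of TFIIIC, rose 1.75-fold and SNAPC2 1.97-fold in the authors' deposited table. SNAPC2 belongs to the SNAP complex, which binds promoters of the kind that RMRP and RPPH1 have, and within the same complex SNAPC4 rose (log2 fold change 0.58) and SNAPC3 fell (−0.50) in the authors' deposited table. SNAPC1 (0.02, adjusted p = 0.95) and SNAPC5 (−0.25, adjusted p = 0.33) of that complex did not pass in the authors' deposited table.

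In the lists for tRNA and precursor rRNA maturation the changes were again mixed. Of 15 genes listed for tRNA maturation with an adjusted p, 3 rose and 2 fell, against 20% and 20.4% of all features. Their median log2 fold change was −0.05 in the authors' deposited table. The risers were LARP7 (0.42), a La-related protein that binds RN7SK, the La protein SSB (0.29), which protects the tails of new RNA polymerase III transcripts, and TSEN54 (0.25), a subunit of the tRNA splicing endonuclease, and the genes that fell were the tRNA ligase subunits DDX1 (−0.45) and RTRAF (−0.30), all from the authors' deposited table. ELAC2, which trims the other end of precursor tRNAs, was at −0.03 (adjusted p = 0.78) in the authors' deposited table. Of 29 genes for precursor rRNA cleavage and maturation, 9 rose and 8 fell, against the same shares of all features. Their median was 0.10 in the authors' deposited table. UTP14A, of the early processome, had 204, 230 and 199 normalized counts in the siHOTAIR libraries, against 467 and 480 in the siNC libraries. NOL9, a polynucleotide kinase of the ITS2 cleavage step, had 424, 358 and 466 in the siHOTAIR libraries, against 840 and 838 in the siNC libraries. UTP14A fell by 1.15 and NOL9 fell by 1.01 on the log2 scale of the authors' deposited table, while NOP56 (0.74) and BOP1 (0.70) rose.

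**Figure D5:**
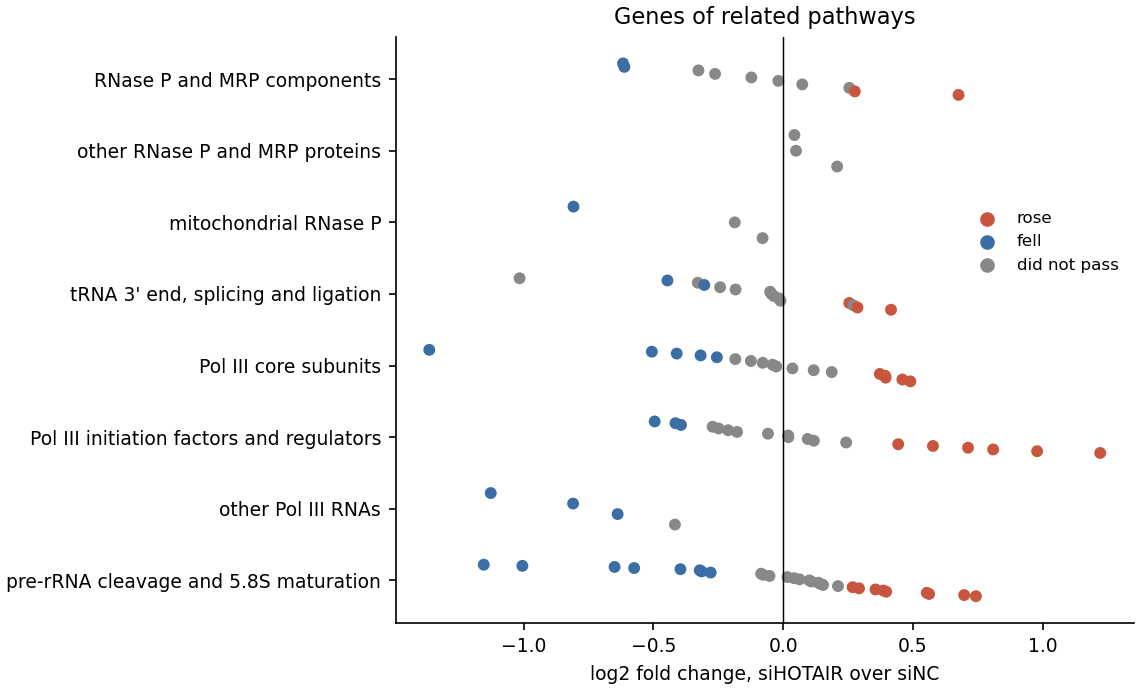
Log2 fold change of siHOTAIR over siNC in the authors' deposited table (x axis) for the 10 components and the genes of 7 related lists (y axis), each point a feature with an adjusted p. The RNA polymerase III RNAs all lie below 0, and the remaining larger lists spread to both sides.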

How the data were processed

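RNA sequencing of ribosomal-RNA-depleted total RNA was deposited as the authors' own comparison of siHOTAIR and siNC, grouped by the library titles. The submitters' processing notes name HTSeq 0.6.1, DESeq, DESeq2 and hg19. No source used here names the aligner, annotation or strand setting. The authors deposited, per feature, a mean signal (counts over size factors, averaged over libraries). Log2 fold changes, their standard errors, the score in the statistic column and the p-values are the authors', as deposited, per the file headers. The headers do not say that the fold changes are shrunken. Shrinkage was inferred here, from fits with a prior on the log2 fold change (fitted variance 1.42). The words rose and fell are used for an adjusted p of the authors under 0.05. A second deposited table held the same fold changes and adjusted p-values.

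The planned test on counts per library was not run, since the tables have no such columns. Reads per library were instead recovered: a feature's mean is a whole-number sum of 5 steps, 1 per library, and the deposited fold change and standard error then pick 1 of the possible sets of reads, within 5e-06 on the log2 scale. The side of a library comes from the authors' own comparison, through the sign of the deposited fold change of features with a single read in it. On 298 simulated features, 298 were recovered right. Size factors were 1.15, 0.934 and 0.888 for siHOTAIR and 1.19 and 0.893 for siNC. A feature with a mean above 1800, or with more than 1 set of reads left, has no values per library here.

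Alternatives on the recovered values used limma 3.58.1 (R 4.3.3) on log2(normalized count + 1) with a mean trend for features with a mean of at least 20, and limma-voom on the reads. On reads simulated for these 11187 features the mean-trend fit found 90 of 100 log2 changes of 1 and 30 of 100 log2 changes of 0.5, and it called 3 of 10987 unchanged features. In the data the same fit called far more features (2777 up and 3146 down) than were changed in the simulation. The simulated shares therefore need not hold for the data. Symbols came from RefSeq (GRCh38.p14), 19108 by gene ID and 386 by accession, with 95 unmatched. Sequences came from GENCODE 29 and RefSeq. The components, the lists and the tests were chosen with earlier results of these data known. Named genes are all components, up to 4 genes that passed by smallest p in each other list, up to 2 others beside them, and the 3 features most like each RNA. A few genes under this rule are not reported here. Further genes of the SNAP complex and of the tRNA list, and the POP5 to POP4 ratio, were added after their values were seen.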

Additional observations from a re-analysis of the deposited data

How the results depend on the processing

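No paired analysis was possible because the recovered libraries carry no replicate numbers. Each of the 10 components was recomputed under 15 alternatives. The calls of POP4 and POP5 and the missed threshold of POP1, RPP25, RPP30 and RPP38 did not change under any of them. When a library was left out, the log2 fold change turned sign, without passing, for RPPH1 (range −0.73 to 0.14, above 0 without siNC library B), POP1 (range −0.027 to 0.17, below 0 without siNC library A) and RPP25 (range −0.096 to 0.052, above 0 at 0.052 without siNC library B and at 0.013 without siHOTAIR library B). With a threshold of 0.01, 1 component rose and 1 fell, and 3 core subunits of RNA polymerase III fell. With limma on features with a mean of at least 5, 4 tRNA maturation genes fell. Leaving out each library in turn, the number of components that rose ranged from 1 to 3 and that fell from 2 to 3. Over the same leave-one-out fits the counts were 1 to 3 risen and 1 to 3 fallen tRNA maturation genes, 2 to 5 fallen core subunits, 1 to 2 fallen RNA polymerase III RNAs of the 2 with recovered reads, and 4 to 7 risen precursor rRNA genes. The low values came without siNC library A for components (1), RNA polymerase III RNAs (1) and precursor rRNA genes (4), without siNC library B for tRNA genes (1 and 1), core subunits (2) and RNA polymerase III RNAs (1), and without siHOTAIR library B for components (1), tRNA genes that rose (1) and precursor rRNA genes (5). Components that rose also numbered 1 without siHOTAIR library A. The cause was not tested, beyond the smaller number of libraries. A fit without siNC library A or B has a single siNC library, so its calls hold no spread among siNC libraries. In the simulated reads limma missed most log2 changes of 0.5. Far fewer features changed there than were called in these data, so that share need not hold here. RN7SL1 and RN7SL2 could not be checked per library.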
